A study of Canis lupus familiaris with 4 samples.

Results

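The miR-200 family was examined in the small RNA of extracellular vesicles (EVs) released by a pair of canine mammary carcinoma cell lines. Its members, cfa-mir-200b, cfa-mir-200a, cfa-mir-429, cfa-mir-200c and cfa-mir-141, were taken by name from the deposited miRNA table, and all 5 were found among its 673 rows, which hold 508 known and 165 predicted miRNAs. The family was picked because it differed between the cell lines in these same data, so the difference between the cell lines is given as a description. The EVs came from CHMp, a line from a primary tumor (pTDEs), and from CHMm, a line from a metastasis of the same dog (mTDEs), with 2 libraries per cell line. Both lines were grown in RPMI medium with serum and gentamicin, moved to medium without serum, and their EVs were collected by filtration and ultracentrifugation. For the sequenced EVs, the sources used here name no further treatment. The study calls the libraries of a line biological replicates, and whether they came from separate cultures is not given in the sources used here, so p-values measure only the spread between these libraries. Each line stands for 1 tumor site of 1 animal. In a bulk EV library, fewer vesicles that carry a miRNA and fewer copies of it per vesicle cannot be told apart.

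The miR-200 family is made from 2 short precursor clusters, each transcribed as a unit, one holding miR-200b, miR-200a and miR-429 and the other miR-200c and miR-141. By the seed, the stretch near the 5′ end that finds targets, the family falls into 2 subfamilies that cross the clusters, miR-200b, miR-200c and miR-429 on one side and miR-200a and miR-141 on the other, whose seeds differ at a single base. The family is a mark of epithelial cells, the cell type from which mammary carcinomas arise. Its best known targets are ZEB1 and ZEB2, transcription factors that repress E-cadherin and both miR-200 clusters, and the family is commonly lost when epithelial cells take on a mesenchymal state. In the RefSeq annotation of the UU_Cfam_GSD_1.0 dog assembly, all 5 members matched a gene. MIR200B, MIR200A and MIR429 follow each other with no other gene starting between them and lie next to TTLL10 and TNFRSF18. MIR200C and MIR141 lie in the same way between PTPN6 and PHB2. The authors used another build, CanFam3.1, so no positions are given.

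Levels are given in CPM, reads scaled to a library total of 1000000, recovered from the deposited values as described under the processing of the data. pTDE replicate 1 held 6295971 reads over all rows and replicate 2 held 5053393, against 3457376 for mTDE replicate 1 and 2330388 for replicate 2. Rows with 1 or 2 reads were listed, such as cfa-mir-206 with 1 read in pTDE replicate 1 and cfa-mir-363 with 2 reads in pTDE replicate 2. A listed 0 is therefore 0 reads, and as a bound its level was taken as under 3 reads. This 3-read limit equals 0.476 CPM in pTDE replicate 1 and 0.594 CPM in pTDE replicate 2. Among rows with 1 to 40 reads, 69.4% to 86.4% had an even read number, depending on the library, and the authors merged the forward and reverse reads of a sample. Intervals for shares were therefore computed from read numbers divided by 2, and they cover counting error only. Across all 673 rows Pearson's r of log2(CPM + 1) was 0.973 for the pTDE pair, 0.897 for the mTDE pair and 0.889 to 0.905 between libraries of different lines. The value of the mTDE pair thus lay inside the range for libraries of different lines, and each value of the family is given for both libraries.

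**Figure D1:**
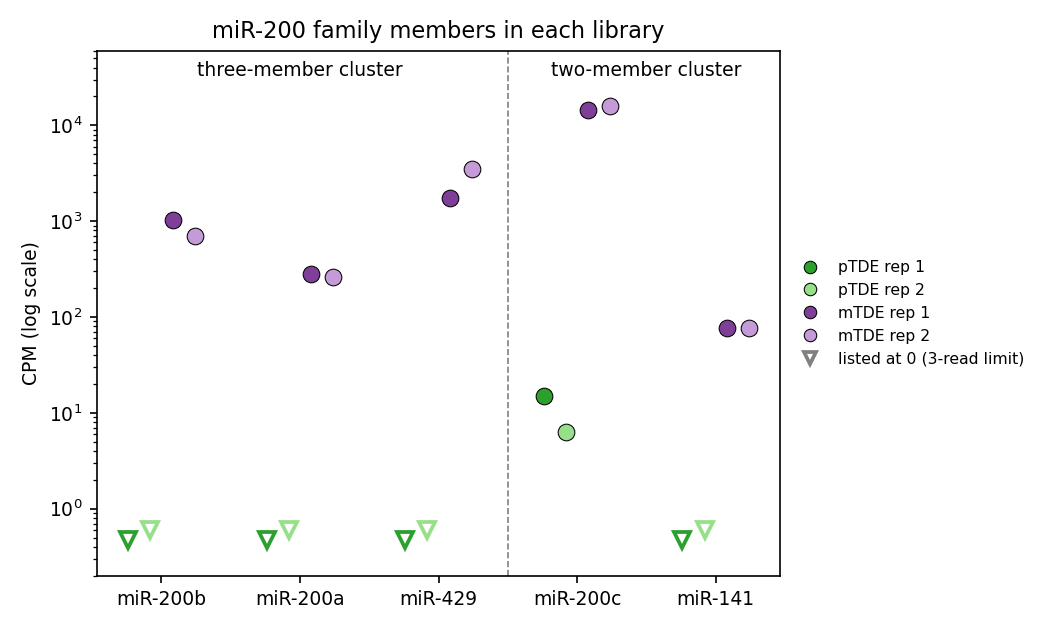
Level of the 5 members in each of the 4 libraries, in CPM on a log axis, with 1 point per library and open triangles at the 3-read limit for members listed at 0. The mTDE libraries carry all 5 members between 76.1 and 16067 CPM, and in the pTDE libraries only miR-200c is above 0, at 15.1 and 6.33 CPM.

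miR-200c was by far the most abundant member in mTDEs and the only one above 0 in pTDEs. mTDE replicate 1 had 14606 CPM and replicate 2 had 16067 CPM, whereas pTDE replicate 1 had 15.1 CPM and replicate 2 had 6.33 CPM. The mTDE libraries were close to each other, the pTDE libraries were both low, and the groups did not overlap. Its mean was 15336 ± 1034 CPM (SD, n = 2) in mTDEs and 10.7 ± 6.19 CPM in pTDEs, so that mTDEs held 1432-fold more. This fold was 1016 against pTDE replicate 1 alone and 2421 against pTDE replicate 2 alone. The pTDE values rest on 95 and 32 reads, the mTDE values on 50497 and 37443 reads. Counted from the most abundant row, miR-200c ranked 15 among the 306 rows above 0 in mTDE replicate 1 and 19 among 332 in replicate 2. In pTDEs it ranked 201 among 342 rows and 238 among 347. miR-141, which shares its precursor cluster with miR-200c, had 76.1 CPM (263 reads) in mTDE replicate 1 and 77.7 CPM (181 reads) in replicate 2, and it was listed at 0 in both pTDE libraries. It was the lowest member in both mTDE libraries and the one with the closest replicates, 76.9 ± 1.13 CPM (SD, n = 2). Against the 3-read limit this was at least 144-fold higher in mTDEs, and at least 71.9-fold against a limit of 6 reads, as for 3 fragments read from both ends. At the mTDE level, 484 reads of miR-141 would be expected in pTDE replicate 1 and 389 in pTDE replicate 2.

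The 3 miRNAs of the other cluster were all listed at 0 in both pTDE libraries. miR-429 had 1747 CPM in mTDE replicate 1 and 3493 CPM in replicate 2, with a mean of 2620.2 ± 1235 CPM (SD, n = 2), at least 4897-fold above the 3-read limit and 2448-fold above that of 6 reads. It was the second most abundant member in each mTDE library, at ranks 54 and 46, and the one whose replicates lay furthest apart. miR-200b was at 1017 and 705 CPM, a mean of 861 ± 221 CPM and at least 1609.8-fold (3 reads) or 805-fold (6 reads) above the limit. miR-200a was at 280 and 261 CPM, a mean of 271 ± 13.7 CPM and at least 506-fold or 253-fold above the same limits. The order from miR-200c through miR-429, miR-200b and miR-200a to miR-141 was the same in both mTDE libraries, and no 2 neighbors in it overlapped. Each pTDE library held more reads than either mTDE library.

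As background for these levels, 326 rows passed the filter (above 0 in each library of either line) and were fitted with limma on log2(CPM + 1). All 5 members were among these rows, 4 of them through the mTDE libraries alone. The fitted log2 fold changes, pTDEs over mTDEs, were -11.27 for miR-429 (standard error 0.81), -10.46 for miR-200c (0.57), -9.73 for miR-200b (0.82), -8.08 for miR-200a (0.83) and -6.28 for miR-141 (0.75), on a scale that understates the change of members listed at 0. At a Benjamini-Hochberg adjusted p-value under 0.05 limma called 6 rows lower in pTDEs, 1.84% of those tested. The 5 members were among the 6, which is no finding, since they were chosen on this contrast. Whether the call of a member held in other fits is likewise a description and no test of the member. That of miR-141 (adjusted p = 0.040 in limma) did not hold when the replicate number was a block (0.056). Nor did it hold when 5 CPM was the pseudocount (0.061) or when every row above 0 anywhere was fitted (0.116). With 1 library left out, miR-141 was not called (0.095 to 0.225), and of the 5 members 2 were called without pTDE replicate 1, 1 without pTDE replicate 2 and 0 without either mTDE replicate. No row was called higher in pTDEs. Without adjustment, 31 rows had a limma p-value under 0.05 and were lower in pTDEs (9.51%, the 5 members included), and 33 were higher (10.1%, no member). Both mTDE libraries lay above both pTDE libraries in 27.3% of the rows tested, all 5 members included. These counts of members likewise describe the choice. With 2 libraries per group an exact permutation test on a single miRNA could not give a p-value below 0.333.

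**Figure D2:**
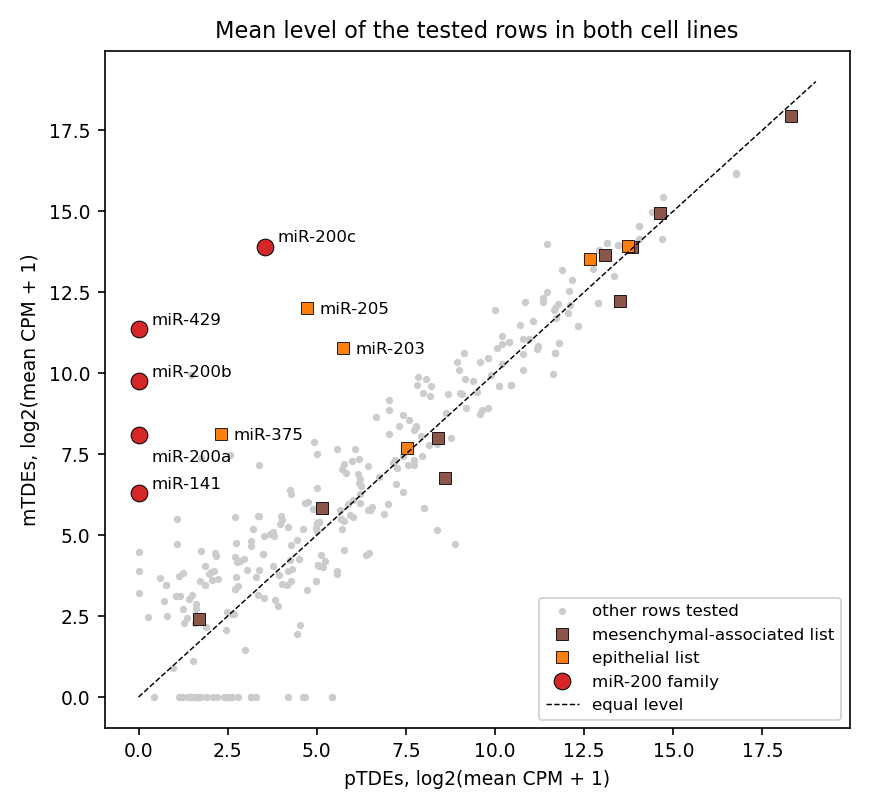
Mean level of each of the 326 rows tested in pTDEs (horizontal axis) and mTDEs (vertical axis), as log2(mean CPM + 1), with the family in red, the lists of epithelial and mesenchymal-associated miRNAs as squares and the line of equal levels dashed. The family lies at the upper left. Of the epithelial miRNAs, miR-205, miR-203 and miR-375 also lie above the line and miR-183, miR-182 and miR-96 nearer to it, and of the mesenchymal-associated miRNAs, miR-199 and miR-155 lie furthest below it.

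The place of the members among the other rows at 0 in pTDEs is also a description, since they were chosen for this contrast. Of the 110 rows whose mean in mTDEs was at least that of miR-200a, 3 were listed at 0 in both pTDE libraries, and these were miR-429, miR-200b and miR-200a. The non-member with the lowest level in pTDEs among these rows was cfa-mir-95, at 0 and 3.56 CPM in pTDE replicates 1 and 2. In the whole table, 7 rows (2.15% of those tested) were above 0 in both mTDE libraries and at 0 in both pTDE libraries. The first 4 of the 7 by level were miR-429, miR-200b, miR-200a and miR-141. The other 3 were far lower, with mTDE means of 21.4 CPM for cfa-mir-147, 13.9 CPM for cfa-mir-676 and 8.34 CPM for cfa_novel_136.

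Together the 5 members took 1.77% and 2.06% of the CPM of mTDE replicates 1 and 2, a mean of 1.92 ± 0.203% (SD, n = 2). In pTDEs the share was 0.00151% and 0.000633%, all of it miR-200c. The total behind these shares is the sum over all rows. Copies of a miRNA with the same values each count in it, such as cfa-mir-92a-1 and cfa-mir-92a-2 (33700 CPM each in mTDE replicate 1). The family summed to 17727 and 20604 CPM in mTDEs, and their mean was 1270.3 times the sum in pTDE replicate 1 and 3026 times that in pTDE replicate 2, with the members listed at 0 counted as 0. The miR-200c and miR-141 cluster held most of it, with 14682 and 16145 CPM against 3045 and 4459 CPM for the cluster of miR-200b, miR-200a and miR-429. The first cluster was thus 4.82 times the second in mTDE replicate 1 and 3.62 times in replicate 2. As a share of the family, it was 82.8% (95% exact binomial interval 82.4% to 83.2%) in replicate 1 and 78.4% (77.8% to 78.9%) in replicate 2. These intervals cover counting error only, not the spread between libraries. Reads under the authors' minimum length were dropped. The effect of this cutoff on the shares and ratios of the members, here and below, was not tested.

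**Figure D3:**
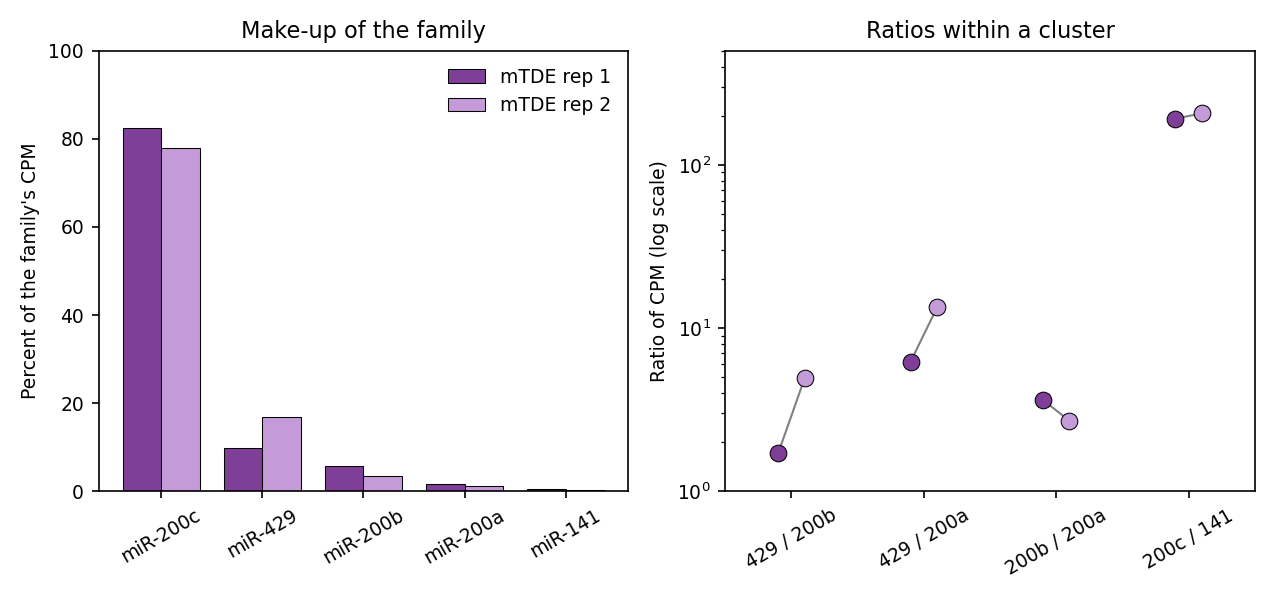
Left, the percent of the family's CPM taken by each member in the 2 mTDE replicates, with bars from 0. Right, the ratio of CPM between members of the same cluster in each replicate, on a log axis. miR-200c takes 82.4% and 78.0% of the family, and the ratios that involve miR-429 move most between the replicates.

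The subfamilies were much less even than the clusters. The seed shared by miR-200b, miR-200c and miR-429 accounted for 17370.2 and 20266 CPM in mTDE replicates 1 and 2, and that of miR-200a and miR-141 for 356 and 339 CPM. The ratio between them was 48.7 and 59.9. The miR-200a and miR-141 subfamily made up 2.01% of the family (95% exact binomial interval 1.86% to 2.17%) in replicate 1 and 1.64% (1.48% to 1.81%) in replicate 2. In each cluster the member with this seed was the lowest one. miR-200a held 9.20% and 5.85% of the CPM of its cluster, and miR-141 held 0.518% and 0.481% of its own. The cluster with less RNA in all therefore supplied more of this seed, since miR-200a was 3.68 and 3.36 times miR-141 in mTDE replicates 1 and 2.

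The ratio between the 2 miRNAs of the miR-200c and miR-141 cluster was nearly the same in both mTDE libraries. miR-200c was 192 times miR-141 in replicate 1 and 207 times in replicate 2, a mean of 199 ± 10.5 (SD, n = 2). The intervals for the share of miR-141 in the cluster, 0.432% to 0.612% in replicate 1 and 0.385% to 0.588% in replicate 2, overlap. The cluster of miR-200b, miR-200a and miR-429 was less steady. miR-429 was 1.72 times miR-200b in replicate 1 and 4.95 times in replicate 2, and 6.23 and 13.4 times miR-200a. miR-200b was 3.63 and 2.70 times miR-200a. As a share of the cluster, miR-429 was 57.4% (95% exact binomial interval 56.0% to 58.7%) in replicate 1 and 78.3% (77.2% to 79.4%) in replicate 2, and miR-200b was 33.4% (32.1% to 34.7%) and 15.8% (14.8% to 16.8%). Replicate 2 thus had more miR-429 and less miR-200b, but of the 240 rows that reached 10 reads in each mTDE library, 54.6% differed between the replicates by less than miR-429 and 32.1% by less than miR-200b. How the counting divided reads between members with similar sequences is not given in the sources used here.

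**Figure D4:**
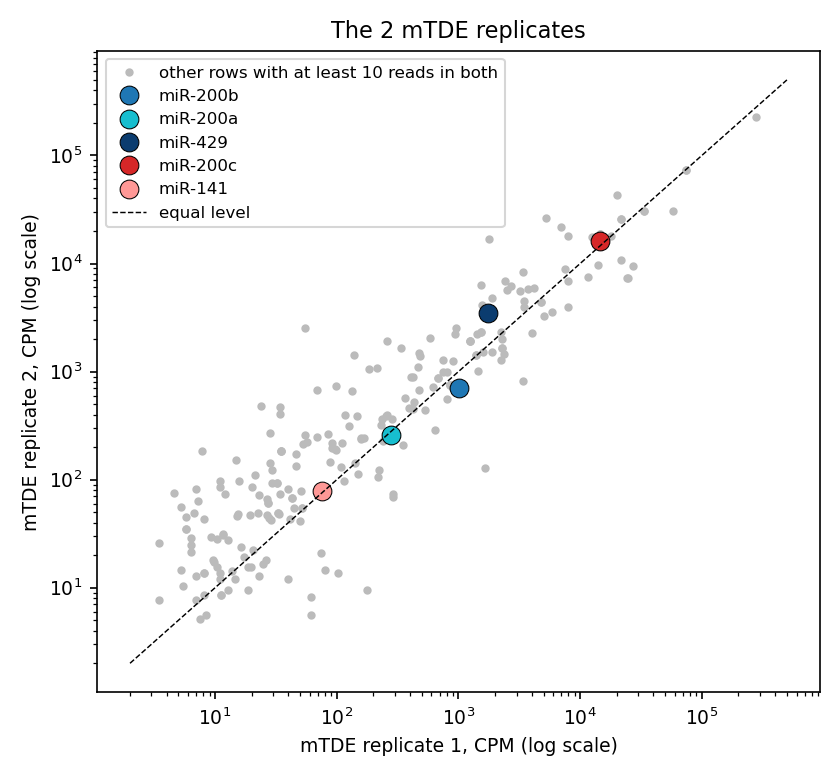
Level of the 240 rows that reached 10 reads in each mTDE library, in CPM on log axes, replicate 1 against replicate 2, with the members in color and the line of equal levels dashed. miR-200c, miR-200b, miR-200a and miR-141 lie near or just below the line and miR-429 lies above it, inside the spread of the other rows.

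These changes can be set beside the spread of other miRNAs between the same libraries. Over the same 240 rows, the median absolute difference between the replicates was 0.88 on the log2 scale, a 1.84-fold change. miR-429 was higher in replicate 2 by 1.0 on this scale. miR-200b was lower in replicate 2, by -0.53 on the log2 scale. miR-200a (-0.10), miR-200c (0.14) and miR-141 (0.03) moved little, and at most 10.0% of the rows differed by less than any of the 3. The rows as a whole were higher in replicate 2, with a median difference of 0.62, so that miR-429 was the only member above the median row. Ratios between members of 1 library do not depend on such a scaling.

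In pTDEs the make-up of the family can be read only as far as the few miR-200c reads allow. In mTDE replicates 1 and 2, miR-429 stood at 12.0% and 21.7% of the level of miR-200c, miR-200b at 6.97% and 4.39%, miR-200a at 1.92% and 1.62% and miR-141 at 0.521% and 0.484%. The 3-read limit in pTDEs was 3.16% of miR-200c in replicate 1 and 9.38% in replicate 2. At 6 reads these limits were 6.32% and 18.8%. The limits for miR-429 in pTDE replicate 1 lie below both mTDE values, so that at these limits miR-429 was lower relative to miR-200c in that library than in either mTDE library. At the mTDE ratios, 11.4 to 20.7 reads of miR-429 would go with the 95 reads of miR-200c there, and 0 were listed. In pTDE replicate 2 the limit was below both mTDE values with 3 reads and between them with 6 reads. For miR-200b the same ratios give 4.17 to 6.62 reads in pTDE replicate 1 and 1.40 to 2.23 in replicate 2, so that in pTDE replicate 1 the limit was below both mTDE values with 3 reads and between them with 6 reads, and 0 reads were listed. For miR-200a and miR-141 they give at most 1.82 and 0.495 reads, so that a fall in their ratio to miR-200c was not detectable at this depth.

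The miRNAs whose profile over the 4 libraries was most like that of the family were found by the Euclidean distance of log2(CPM + 1), centered on the mean of each row, to the mean profile of the members. The median distance over the tested rows outside the family was 9.30. The closest was cfa-mir-205, an epithelial miRNA that also targets ZEB1 and ZEB2, at a distance of 2.03. It was at 20.3 and 30.8 CPM in the pTDE replicates and at 5041 and 3273 CPM in the mTDE replicates. Next came cfa-mir-95 at 2.10, with 0 and 3.56 CPM in pTDEs and 476 and 1491 CPM in mTDEs. Both lay closer to the mean profile than the members miR-429 (2.20) and miR-141 (2.89). They were followed by cfa-mir-375 at 3.5, the predicted miRNA cfa_novel_8 at 3.59 and cfa-mir-203 at 4.42. cfa-mir-375 was at 1.27 and 6.74 CPM in pTDEs and 349 and 210.3 CPM in mTDEs. cfa-mir-203, an epithelial miRNA best known from skin, was at 38.5 and 66.9 CPM in pTDEs and 950.2 and 2535 CPM in mTDEs. cfa_novel_8 was at 4.76 and 0 CPM in pTDEs and 109.7 and 219 CPM in mTDEs. Its mature sequence is shown because it is the one row of the 5 that has no established name, with the seed (bases 2 to 8) in capitals.
cfa_novel_8: uGAGCCACccaggcgccccuug

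**Figure D5:**
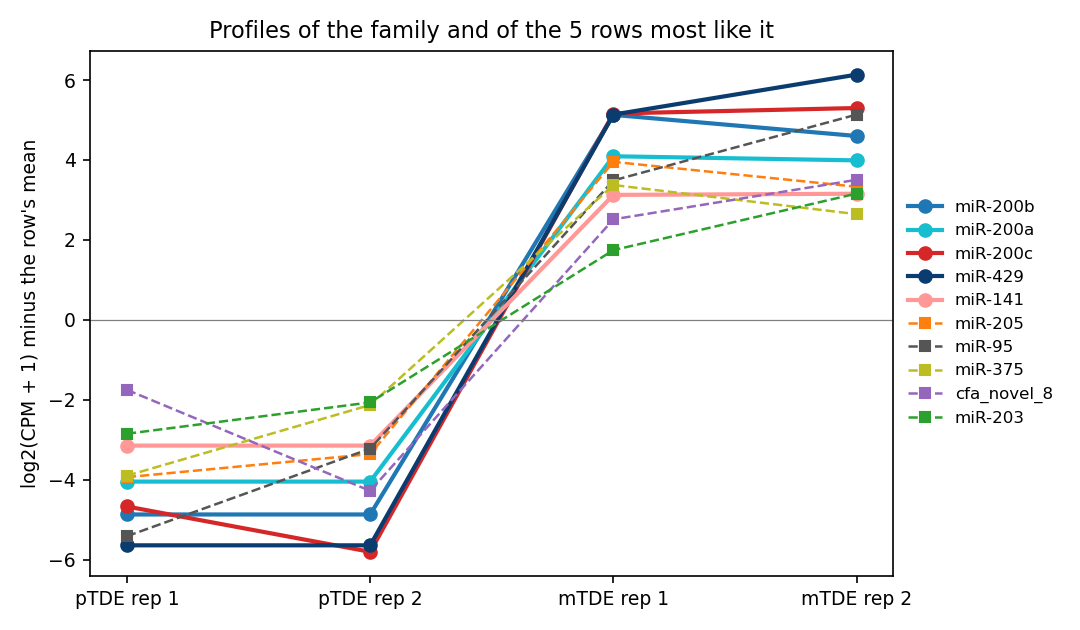
Profiles of the 5 members (solid lines) and the 5 other rows most like them (dashed lines) over the 4 libraries, as log2(CPM + 1) minus the mean of the row. Every row is below its mean in both pTDE libraries and above it in both mTDE libraries, and miR-200c and miR-429 have the widest swing.

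Of these 5 rows, 3 belong to a list of 6 epithelial miRNAs made up of miR-205, miR-203, miR-375 and the miR-183, miR-96 and miR-182 cluster. The 5 rows were picked for a profile like that of the family, and the lists were chosen with earlier results of these data known. The overlap and the values of the lists are therefore a description. Of the 6, limma called miR-205 lower in pTDEs (log2 fold change -7.28, standard error 0.53, adjusted p = 0.0096) and none higher, against 1.84% of all rows tested called lower. The call of miR-205 was lost in limma without mTDE replicate 1 (adjusted p = 0.109) and without mTDE replicate 2 (0.095). miR-203 (log2 fold change -4.91) and miR-375 (-6.02) had adjusted p-values of 0.054 and 0.062 in the same limma fit. The log2 fold changes of miR-183 (-0.91), miR-182 (-0.25) and miR-96 (-0.12) were far smaller than those of the family. The median over the list was -2.91, and over all rows tested -0.03. A list of mesenchymal-associated miRNAs (miR-143, miR-145, miR-199, miR-214, miR-221, miR-222, miR-10b, miR-155 and miR-21) had a median of -0.22 over its 9 distinct rows, and limma called none of them in either direction. At an unadjusted p-value under 0.05, 1 of the 9 passed, miR-155, against 9.51% of all rows tested lower and 10.1% higher in pTDEs. Both pTDE libraries lay above both mTDE libraries for miR-199 and miR-155, 2 of the 9, against 26.1% of all rows tested.

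miRNAs of other cell types were also read in these libraries. The 4 distinct miRNAs of fibroblasts and smooth muscle in the list above (miR-143, miR-145, miR-199 and miR-214) summed to 589 to 926 CPM in pTDEs and 81.6 to 762 CPM in mTDEs. Of 6 blood miRNAs, miR-144 was at 0 in all libraries, and the list summed to 261 to 893 CPM in pTDEs and 706 to 3018 CPM in mTDEs. Striated muscle miRNAs (miR-1, miR-133 and miR-206) summed to 232 to 369.6 CPM in pTDEs and 0 to 133 CPM in mTDEs, and miR-206 was at 0.16 CPM or less in each library. limma called none of the rows tested in these 3 lists, against 1.84% of all rows tested called lower and 0% higher in pTDEs. Only miR-1 among them had an unadjusted p-value under 0.05, against 9.51% and 10.1% of all rows. Their part in the result for the family was not tested.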

How the data were processed

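Small RNA of EVs was sequenced with the NEXTflex small RNA kit on HiSeq and NovaSeq instruments, and the instrument of each library is not given in the sources used here. The authors trimmed adapters with cutadapt, checked the reads with FastQC and kept only reads between a minimum and a maximum length. Forms of a miRNA shorter than that minimum are therefore not counted. The authors then merged forward and reverse reads, and counted reads per miRNA with miRDeep2 (reference CanFam3.1), using miRBase entries and their own predictions. Tool versions were not given in the sources used here. The values deposited per library are treated as a score: the paper's methods describe CPM, but these values have the form of log2(CPM + 1) times a constant of the library. The deposited table also holds the authors' own comparison of the cell lines from edgeR, with log2 fold changes and levels, p-values and a score from a likelihood ratio, none of which was used.

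CPM were computed as 2 to the power of (score/s), minus 1, with s per library set so that the total is 1000000 (s = 495, 493, 487 and 426 in pTDE replicates 1 and 2 and mTDE replicates 1 and 2). The worth of 1 read is the largest step that divides every distinct value under 20 CPM within rounding, and 100% of values up to 20 steps lay within 0.1 step. Rounding of the score leaves a relative error of at most 0.0813% in CPM + 1, and a larger one in CPM at low levels. limma 3.58.1 (R 4.3.3) was run with a mean-variance trend on the log2(CPM + 1) of 326 rows, with a prior of 2.40 degrees of freedom. Python 3.11.15, numpy 2.4.6, pandas 2.3.3, scipy 1.17.1 and matplotlib 3.10.9 were used otherwise. Conversion and fit were tested on simulated data. The members, the lists and the rule for the rows named (the 5 members, the 5 rows most like them, the lists, and rows at 0 in both pTDE libraries) were chosen with earlier results of these data known. cfa-mir-147, cfa-mir-676 and cfa_novel_136 were named after their values were seen. Alternatives were other pseudocounts, row filters, scalings and variance models, voom, a replicate block, another read limit and leaving out each library.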

Additional observations from a re-analysis of the deposited data

How the results depend on the processing

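The direction of the members was fixed by how they were chosen, and 4 of them are at 0 in both pTDE libraries. Over the 9 fits other than leaving out a library, the log2 fold changes ranged from -14.75 to -8.95 for miR-429, -10.60 to -1.92 for miR-200c, -13.24 to -7.41 for miR-200b, -11.85 to -5.78 for miR-200a and -11.48 to -4.03 for miR-141. With a library left out they lay between -11.77 and -6.27. Calls lower in pTDEs, 6 in the report, were 11 with voom, 11 when 0.1 CPM was the pseudocount and 11 when the deposited numbers stood in for CPM, and from 0 to 4 with a library left out, where the lone library is assumed to vary like the others. They were 0 without either mTDE replicate and 4 without either pTDE replicate, with 2 members among them without pTDE replicate 1 and 1 without pTDE replicate 2. Calls higher in pTDEs, 0 in the report, were 39 when the deposited numbers stood in for CPM, 28 when 0.1 CPM was the pseudocount, 5 with voom, 5 after median-ratio scaling, 4 when eBayes had no trend, and from 0 to 37 with a library left out, 37 without either pTDE replicate. That scaling shifted the median over all tested rows by 0.25 on the log2 scale. With the replicate number as a block there were 7 calls lower and 0 higher in pTDEs, with 4 members among the 7 (not miR-141, whose adjusted p was under 0.05 in 6 of the 9 fits and was not when any library was left out). The correlation of same-numbered deviations was 0.15 over 2 pairs, and nothing in the labels pairs the libraries. When the deposited numbers stood in for CPM, the family share of mTDE libraries was 2.25% in place of 1.92%, the share of the miR-200c and miR-141 cluster in the family 41.0% in place of 80.6%, that of the miR-200a and miR-141 subfamily 29.2% in place of 1.83%, and the ratio of miR-200c to miR-141 2.21 in place of 199, because these values are on a log scale. With 1 mTDE library left out, the family share was 1.77% to 2.06%, the cluster share 78.4% to 82.8%, the subfamily share 1.64% to 2.01%, the ratio of miR-429 to miR-200b 1.72 to 4.95 and that of miR-200c to miR-141 192 to 207. Beyond these changes of scale, the cause was not tested. The pTDE reads of miR-200c, 95 and 32, limit what can be said of the family's make-up there.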

Other observations

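On the deposited scale, miR-200c differs by a log2 fold change of -1.92, against -10.46 in CPM, because the score runs with the log of the level. The log2 fold changes of the members listed at 0 in pTDEs are larger on the deposited scale, at -12.33 for miR-429, -12.11 for miR-200b, -11.85 for miR-200a and -11.48 for miR-141, and there miR-200c is the member with the smallest change.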
